A study of Mus musculus with 12 samples.

Results

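Mycn and Mycl encode the paralogs of the transcription factor Myc, and Max, Mxd1, Mxd3, Mxd4, Mxi1, Mnt and Mga encode the common partner of these factors and the other proteins that bind it. The 9 genes were chosen by name, leaving out Myc itself, among the 37583 genes of the deposited count tables of 12 mouse RNA-seq libraries. All 9 were found and all 9 were among the 16240 genes that passed the filter on low counts. The study followed mouse embryonic fibroblasts (MEF) on their way to induced pluripotent stem cells (iPSC), and sampled 6 populations with 2 replicates each. The groups were MEFs kept in MEF medium, cells sorted on day 3 as SSEA1+CD73+Sca1- (d3_Eff) or as SSEA1+CD73-Sca1+ (d3_Ineff), cells sorted on day 6 as SSEA1+EpCAM+Sca1- (d6_Eff) or as SSEA1+EpCAM-Sca1+ (d6_Ineff), and iPSCs kept in ES medium. The day 3 and day 6 cells were in ES medium with dox and AA. All 6 groups share the strain 129SV/Jae/C57BL6J, were freed with trypsin and were sorted by flow cytometry. The names Eff and Ineff are the submitters', and the MEF and iPSC samples also carry the words 3/4 in their titles, whose meaning is not given. The labels do not say which reprogramming factors dox switched on, nor whether the replicates came from separate cultures, so every p-value here speaks of the spread among these libraries, which may be technical.

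Proteins of the Myc family do not bind DNA alone: each pairs with Max, and the pair binds the E-box sequence and recruits coactivators. The Mxd proteins, Mxi1 and Mnt compete for the same partner and the same sequence, and recruit Sin3 and histone deacetylases, which lower transcription. Mga also pairs with Max, and belongs to a Polycomb complex that keeps germline genes silent in mouse embryonic stem cells. Myc is one of the classical reprogramming factors, Mycl can take its place in mouse and human cells, and Mycn is the main paralog of pluripotent mouse cells.

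The promoters of the 2 members whose levels spanned the widest range, Mycn and Mxd4, are shown first, so that the letters before each start site can be read beside the values. RefSeq gave 11 promoters for the 9 members on GRCm38.p6, 3 of them for Mxi1, and the 300 bases searched ran from 250 before to 50 after each start. Motifs of 2 kinds were searched on both strands, counting overlapping matches: the E-box CACGTG, which reads the same on both strands, and the letters TTTNGCGC, or GCGCNAAA on the other strand, which resemble the site of the E2F cell cycle factors. The 250 bases before each start are given 5′ to 3′ on the gene's strand, both genes lying on the minus strand, and capitals mark the matches.
Mycn, chr12:12941837-12942086: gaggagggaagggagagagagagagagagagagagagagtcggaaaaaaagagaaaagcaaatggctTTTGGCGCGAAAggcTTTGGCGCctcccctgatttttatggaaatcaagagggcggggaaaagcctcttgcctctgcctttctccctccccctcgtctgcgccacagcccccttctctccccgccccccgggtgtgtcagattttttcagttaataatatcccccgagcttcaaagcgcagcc
Mxd4, chr5:34187711-34187960: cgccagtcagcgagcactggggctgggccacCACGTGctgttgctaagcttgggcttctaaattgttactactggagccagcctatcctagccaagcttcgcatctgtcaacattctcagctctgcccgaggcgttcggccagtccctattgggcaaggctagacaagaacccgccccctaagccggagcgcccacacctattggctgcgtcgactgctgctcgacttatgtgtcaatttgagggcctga
The Mycn promoter held 3 E2F-like matches, the first and second of them overlapping, starting at bases -183, -179 and -168 relative to the start site, and no E-box. The Mxd4 promoter held 1 E-box, starting at -219.

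E-boxes were found at 3 of the 9 members, Max, Mxd4 and Mnt, and the E2F-like letters at Mycn alone. Counted by promoter, these were 3 and 1 of the 11. Max (on the minus strand) and Mnt (on the plus strand) are shown as the match in capitals with 11 bases on either side, because they are the other members whose own promoter holds the letters that their proteins bind. The Max match starts at -3 and the Mnt match at -123.
Max, chr12:76962235-76962262: gtgagcccggtCACGTGttagggggccg
Mnt, chr11:74830790-74830817: cccacccaagcCACGTGtgcgcgcgcgg
Of all 32851 promoters in the same RefSeq table, 7.15% held the E-box and 1.38% the E2F-like letters. These matches describe the letters only, and binding was not measured.

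Gene counts per library ran between 9284060 and 22763548. In 2 libraries an unusual share of counted reads fell outside genes, 47.2% in MEF replicate 2, which was also the shallowest, and 24.1% in d6_Eff replicate 2. The remaining 10 libraries had 5.10% to 11.7%. Values without 1 of these libraries are given beside some of the results that rest on it, and for most list counts of iPSC against MEF they are not given. The summed level of 7 pluripotency markers was 4009 to 4045 counts per 1000000 (CPM, scaled for library composition by the TMM method) in iPSCs and 1.26 to 1.96 CPM in MEFs, and that of 6 fibroblast markers was 8.55 to 10.9 CPM in iPSCs and 10442 to 41127 CPM in MEFs, as the labels say. The 4 epithelial markers summed to 1561 to 1680 CPM in d6_Eff and to 92.8 to 93.5 CPM in d6_Ineff, and these include Epcam, on which the gate sorted. The 4 leukocyte markers summed to at most 11.9 CPM in any library. The 4 endothelial markers summed to 54.2 to 160 CPM outside MEFs, led by the receptor gene Tek in the sorted groups.

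Across the 6 groups, 4 of the 9 members differed at an adjusted p under 0.05 in edgeR's quasi-likelihood test with Benjamini-Hochberg adjustment over all genes: Mycn (adjusted p = 1.09e-07), Mxd4 (2.57e-07), Mycl (0.000477) and Mga (0.00373). Among all genes tested, 59.5% passed the same test. Mnt (0.231), Mxd1 (0.489), Mxd3 (0.259), Mxi1 (0.127) and Max (0.528) did not pass. Without MEF replicate 2 and d6_Eff replicate 2, an alternative chosen after seeing the data, 7 members and 66.2% of all genes passed.

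**Figure D1:**
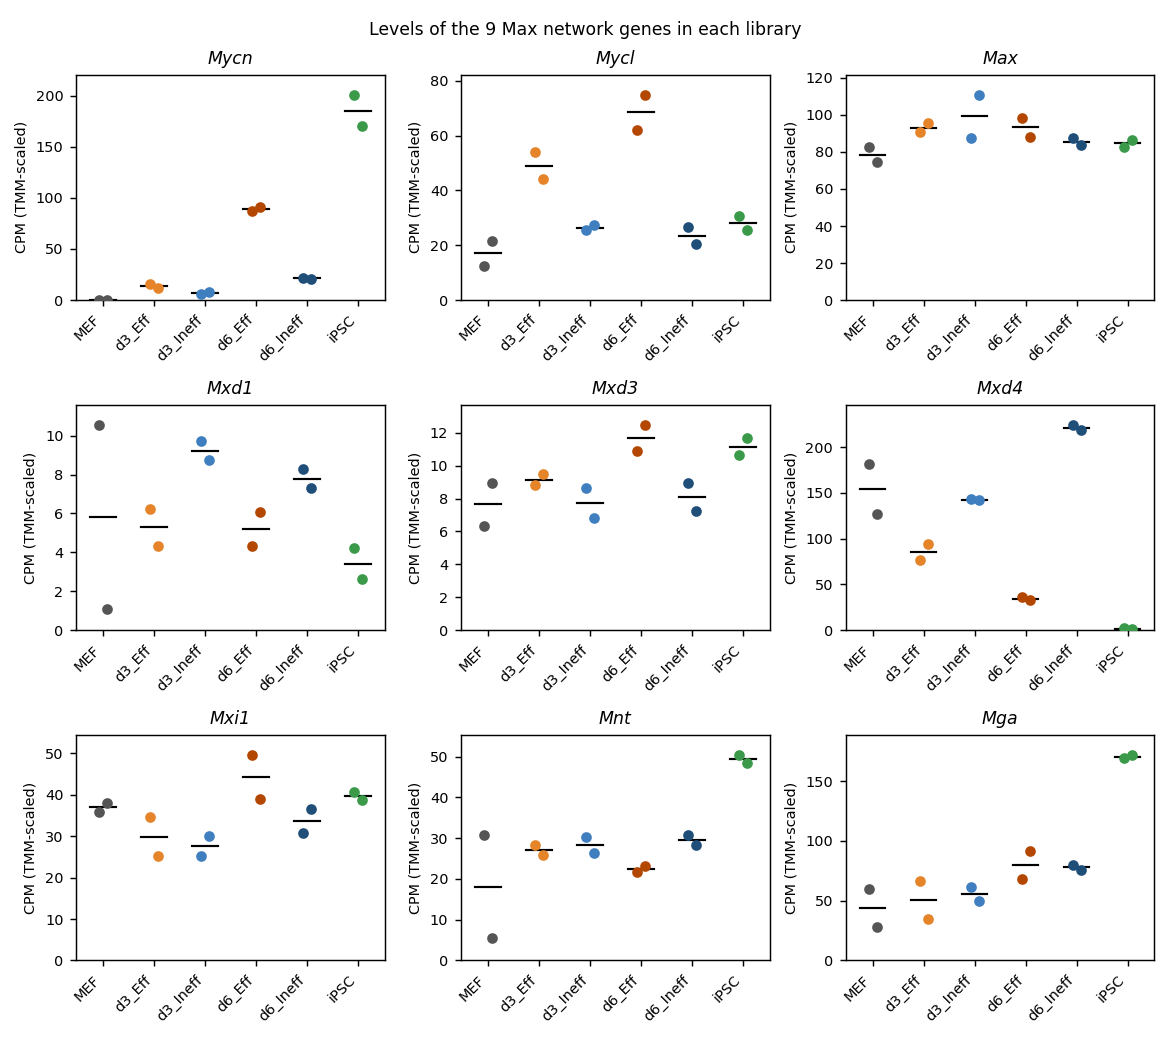
Level of each of the 9 genes in TMM-scaled CPM (vertical axis, from 0) in the 6 groups; points are single libraries and lines are means of the 2 replicates. Mycn reaches 169.8 and 200.5 CPM in iPSCs, Mxd4 is near 0 in iPSCs and highest in d6_Ineff, Mycl is highest in d6_Eff, and Max stays between 74.4 and 110.7 CPM.

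Mycn (ENSMUSG00000037169, chromosome 12), the paralog known from embryonic stem cells and neuroblastoma, was close to absent in MEFs and was highest in iPSCs. It had 6 counts (0.310 CPM) in MEF replicate 1 and 0 counts in MEF replicate 2. On day 3 it had 15.3 and 12.3 CPM in d3_Eff, against 6.12 and 7.65 CPM in d3_Ineff. On day 6 it had 86.6 and 91.3 CPM in d6_Eff, against 22.1 and 20.3 CPM in d6_Ineff. The iPSC libraries had 200.5 and 169.8 CPM. No neighbouring groups overlapped, and the order ran iPSC, d6_Eff, d6_Ineff, d3_Eff, d3_Ineff, MEF. Against MEFs, Mycn was higher in all 5 other groups, by 9.68 ± 0.44 on the log2 scale in iPSCs (SE, adjusted p = 5.6e-08), 8.62 in d6_Eff, 6.55 in d6_Ineff, 5.94 in d3_Eff and 4.93 in d3_Ineff (all edgeR, with adjusted p of at most 1.66e-05). These 5 comparisons share the MEF libraries. With 6 counts in 1 MEF library and none in the other, the MEF level behind these folds is poorly determined. Against the limit of 3 counts (0.419 CPM) that a count of 0 allows in MEF replicate 2 alone, the mean levels were at least 442-fold higher in iPSCs, 212-fold in d6_Eff, 50.6-fold in d6_Ineff, 33.0-fold in d3_Eff and 16.4-fold in d3_Ineff. Without MEF replicate 2 the log2 differences from MEFs were 9.14 in iPSCs, 8.04 in d6_Eff, 5.99 in d6_Ineff, 5.35 in d3_Eff and 4.37 in d3_Ineff. In bulk samples, fewer cells with the transcript and less RNA per cell cannot be told apart, here and for each result that follows.

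Mycl (ENSMUSG00000028654, chromosome 4), known as L-Myc, had its highest levels in the Eff gates, not in iPSCs. MEFs had 12.6 and 21.6 CPM. On day 3 the levels were 54.1 and 44.0 CPM in d3_Eff, against 25.7 and 27.2 CPM in d3_Ineff. On day 6 they were 62.2 and 74.8 CPM in d6_Eff, against 26.7 and 20.4 CPM in d6_Ineff, and iPSCs had 30.7 and 25.7 CPM. Both Eff groups lay above all other libraries, while iPSC, d3_Ineff, d6_Ineff and MEF formed a run in which each group overlapped the next. Against MEFs, Mycl was higher by 2.02 ± 0.28 on the log2 scale in d6_Eff (SE, edgeR adjusted p = 0.000172) and by 1.54 ± 0.28 in d3_Eff (0.0013). These were 2.34 in d6_Eff and 1.85 in d3_Eff without MEF replicate 2. In iPSCs it was lower than in d6_Eff by 1.28 on the log2 scale (log2 change -1.28 ± 0.27, adjusted p = 0.00449, edgeR), which did not pass without iPSC replicate 2 (-1.15, adjusted p = 0.0518).

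Myc, which is not among the 9 genes, had 280 ± 32.7 CPM in d3_Eff, 256 ± 33.9 in d3_Ineff, 239 ± 1.59 in d6_Eff and 259 ± 2.44 in d6_Ineff, beside 69.4 ± 24.7 in MEFs and 11.1 ± 0.0939 in iPSCs (SD, n = 2 each). Whether reads from a dox-driven copy entered the Myc counts was not tested.

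Max (ENSMUSG00000059436, chromosome 12), the partner of every other member of the network, varied least. Its highest library was d3_Ineff replicate 2 with 110.7 CPM and its lowest was MEF replicate 2 with 74.4 CPM, a span of 1.49-fold. The highest group mean was 99.2 ± 16.3 CPM in d3_Ineff and the lowest was 78.4 ± 5.68 CPM in MEFs (SD, n = 2 each). No comparison called Max in edgeR's test, and its log2 differences lay between -0.21 and 0.34, with SE of 0.17.

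Mxd4 (Mad4; ENSMUSG00000037235, chromosome 5), one of the Max partners that recruit Sin3, ran opposite to Mycn between the gates and was almost lost in iPSCs. MEFs had 181.8 and 126.8 CPM. On day 3 it had 76.7 and 94.4 CPM in d3_Eff, against 143.0 and 142.4 CPM in d3_Ineff. On day 6 it had 36.1 and 32.8 CPM in d6_Eff, against 223.9 and 218.5 CPM in d6_Ineff, and iPSCs had 2.28 and 1.32 CPM. The d6_Ineff libraries were the highest of all 12, MEF and d3_Ineff overlapped, and d3_Eff, d6_Eff and iPSC followed without overlap. In iPSCs it fell by 6.39 on the log2 scale relative to MEFs (log2 change -6.39 ± 0.31, edgeR adjusted p = 7.14e-08), an 83.6-fold lower level. Against MEFs it was also lower in d6_Eff (-2.16 ± 0.24, adjusted p = 3.53e-05, edgeR) and in d3_Eff (-0.85 ± 0.23, 0.0146), and the d3_Eff difference did not pass without d3_Eff replicate 1 (-0.80, adjusted p = 0.0816). The log2 changes from MEFs were -6.66 in iPSCs, -2.50 in d6_Eff and -1.20 in d3_Eff without MEF replicate 2. In d6_Ineff its log2 difference from MEFs was 0.52 ± 0.23 (adjusted p = 0.117), and it passed without MEF replicate 1 (0.82, adjusted p = 0.00273). In the later annotation Mxd4 shares 514 exonic bases with Gm42846 on the opposite strand, and the counting ignored strand.

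Of the other 3 repressors of the Mxd group, Mxd1 and Mxd3 had low levels and Mxi1 higher ones, and edgeR called none of the 3 in any comparison with all 12 libraries. Mxd1 (Mad1; ENSMUSG00000001156, chromosome 6), known for rising as blood and skin cells differentiate, was the only one with a large gap between MEF replicates, 10.5 and 1.12 CPM. Its other libraries lay between 2.64 CPM in iPSC replicate 2 and 9.71 CPM in d3_Ineff replicate 1. Both gates gave lower Mxd1 values in Eff, 6.24 and 4.32 CPM in d3_Eff against 9.71 and 8.73 CPM in d3_Ineff, and 4.32 and 6.05 CPM in d6_Eff against 8.29 and 7.30 CPM in d6_Ineff. These differences did not overlap and did not pass edgeR's test (adjusted p = 0.900 on day 3 and 0.625 on day 6). Against MEFs the sign for Mxd1 rests on 1 library: the log2 difference of iPSCs was -0.83 (adjusted p = 0.338), -1.66 without MEF replicate 2 (0.0029) and 1.64 without MEF replicate 1 (0.0378, all edgeR).

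Mxd3 (Mad3; ENSMUSG00000021485, chromosome 13), which is known from dividing cells, had 8.84 and 9.46 CPM in d3_Eff against 8.66 and 6.79 CPM in d3_Ineff, and 10.9 and 12.5 CPM in d6_Eff against 8.92 and 7.26 CPM in d6_Ineff. iPSCs had 10.7 and 11.7 CPM and MEFs 6.35 and 8.93 CPM, so that d6_Eff and iPSC lay above the 8 other libraries. No comparison called Mxd3; it shares 105 exonic bases with Prelid1 on the opposite strand, a gene with 60961 counts in all. Mxi1 (ENSMUSG00000025025, chromosome 19), also known as Mad2, lay between 25.2 CPM in d3_Eff replicate 2 and 49.5 CPM in d6_Eff replicate 1. Its group means were 36.97 ± 1.62 CPM in MEFs, 29.9 ± 6.67 in d3_Eff, 27.6 ± 3.47 in d3_Ineff, 44.2 ± 7.42 in d6_Eff, 33.6 ± 4.13 in d6_Ineff and 39.8 ± 1.37 in iPSCs (SD, n = 2 each). Mxi1 was not called in any comparison, with its smallest adjusted p, 0.127, in the test across the 6 groups; without MEF replicate 2 and d6_Eff replicate 2 it was called in d6_Eff against d3_Eff (0.73, adjusted p = 0.0494, edgeR).

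Mnt (ENSMUSG00000000282, chromosome 11), the repressor that is present in both resting and dividing cells, was highest in iPSCs, with 50.3 and 48.5 CPM. The 8 sorted libraries lay between 21.8 CPM in d6_Eff replicate 1 and 30.8 CPM in d6_Ineff replicate 1. MEF replicate 1 had 30.8 CPM and MEF replicate 2 had 5.44 CPM. MEF replicate 2, which also held the lowest Mxd1 and Mga values, is the library with 47.2% of reads outside genes, and the part of that in these values was not tested. The iPSC libraries thus stood above all 10 others, while MEF spanned the range of the sorted groups and went below it. In iPSCs Mnt was higher than in MEFs by 1.41 ± 0.52 on the log2 scale (SE, edgeR adjusted p = 0.0398), by 0.62 without MEF replicate 2 (0.0241) and by 3.19 without MEF replicate 1 (2.6e-08). The call was lost when any 1 of the other 10 libraries was left out (adjusted p between 0.0557 and 0.11). Against d6_Eff the log2 difference of iPSCs was 1.14 ± 0.51 (adjusted p = 0.119, edgeR), and without MEF replicate 2, a library of neither group, it was 1.18 (adjusted p = 3.63e-05). In d6_Eff against MEF the log2 difference of Mnt was 0.27 ± 0.51 (adjusted p = 0.717, edgeR), and it turned to -0.56 without MEF replicate 2 (0.042) and was 2.05 without MEF replicate 1 (7.23e-06).

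Mga (ENSMUSG00000033943, chromosome 2), the largest protein of the network, was also highest in iPSCs, at 169.1 and 171.5 CPM. MEFs had 59.5 and 27.6 CPM. On day 3 it had 66.5 and 34.9 CPM in d3_Eff, against 61.6 and 49.5 CPM in d3_Ineff, and on day 6 it had 68.3 and 92.0 CPM in d6_Eff, against 79.6 and 76.0 CPM in d6_Ineff. The gates overlapped on both days, and the iPSC libraries stood above every other library. In iPSCs it was higher than in MEFs by 1.96 ± 0.37 on the log2 scale (SE, edgeR adjusted p = 0.000975), by 2.63 without MEF replicate 1 (8.95e-06) and by 1.46 without MEF replicate 2 (0.0013). It was higher in iPSCs than in d6_Eff by 1.09 ± 0.36 (0.0402, edgeR). The call against d6_Eff was lost in 6 of the 12 refits that left out 1 library (adjusted p between 0.051 and 0.195), those without a d6_Ineff, d6_Eff or iPSC library.

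The endpoints of the conversion, iPSCs against MEFs, differed in 5 of the 9 members by edgeR's test: Mycn, Mga, Mnt and Mycl were higher and Mxd4 was lower. In the same comparison 52.7% of all genes tested were called, so the share among the members is near that of all genes, and what sets Mycn and Mxd4 apart is the size of their differences. Mycl was higher by only 0.74 ± 0.28 on the log2 scale (adjusted p = 0.042, edgeR). Its call was lost in 11 of the 12 refits that left out 1 library (adjusted p up to 0.203), and held without MEF replicate 2 (1.11, adjusted p = 0.00129).

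The day 3 and day 6 gates against MEFs called fewer members. In d3_Eff 3 members were called, Mycn and Mycl higher and Mxd4 lower, where 36.5% of all genes were called. In d3_Ineff only Mycn was called, where 30.0% of all genes were. In d6_Eff the 3 called members were again Mycn, Mycl and Mxd4, in the same directions (42.6% of all genes), and in d6_Ineff Mycn alone (30.8%). Without MEF replicate 2 the log2 differences of Mycl from MEFs were 1.00 in d3_Ineff and 0.82 in d6_Ineff, beside 0.65 and 0.48 with all 12 libraries. Leaving out MEF replicate 1 kept only MEF replicate 2, where Mnt, Mxd1 and Mga were lowest. In that refit Mnt stood above MEFs in all 4 sorted groups, by 2.05 to 2.45 on the log2 scale, and Mga by 0.89 to 1.55. In the same refit Mxd1 stood higher in all 4, by 2.25 in d3_Eff, 3.05 in d3_Ineff, 2.22 in d6_Eff and 2.81 in d6_Ineff. With MEF replicate 2 left out instead, Mnt stood below MEFs in all 4, at -0.13 to -0.56. Mxd1 also stood below in all 4, at -0.26 to -1.13. Mga was at -0.17 in d3_Ineff, -0.33 in d3_Eff, 0.31 in d6_Ineff and 0.33 in d6_Eff. The signs of Mnt and Mxd1 against MEFs thus turned with the MEF library kept. Each of these refits leaves MEFs with 1 library, and a larger share of all genes was called against MEFs in them.

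**Figure D2:**
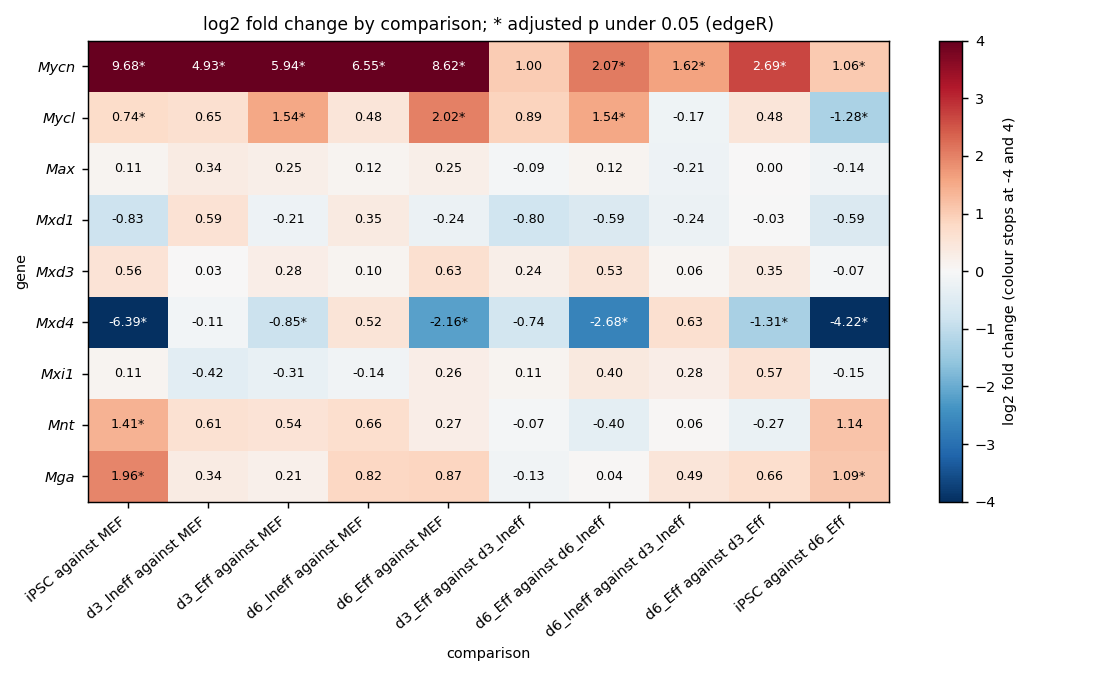
log2 fold change from edgeR of each of the 9 genes (rows) in 10 comparisons of 2 groups (columns), with the first-named group over the second; a star marks an adjusted p under 0.05. Mycn and Mxd4 hold the largest values, 9.68 and -6.39 for iPSC against MEF, and run opposite in d6_Eff against d6_Ineff (2.07 and -2.68), while Max stays between -0.21 and 0.34.

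The Eff and Ineff gates of the same day differ in surface markers at equal time after the start. On day 6, Mycn and Mycl were higher and Mxd4 was lower in d6_Eff than in d6_Ineff, 3 of the 9 members, where 14.6% of all genes were called. Mycn averaged 89.0 ± 3.28 CPM in d6_Eff and 21.2 ± 1.25 CPM in d6_Ineff (SD, n = 2 each), a log2 difference of 2.07 ± 0.27 (SE, edgeR adjusted p = 0.000703). Mycl averaged 68.5 ± 8.90 CPM in d6_Eff and 23.5 ± 4.41 CPM in d6_Ineff, a log2 difference of 1.54 ± 0.27 (adjusted p = 0.0037, edgeR). Mxd4 averaged 34.5 ± 2.3 CPM in d6_Eff and 221 ± 3.81 CPM in d6_Ineff, a log2 difference of -2.68 ± 0.25 (adjusted p = 0.000114, edgeR), or a 6.42-fold lower level. Without d6_Eff replicate 2, Mycn (1.99, adjusted p = 0.00884), Mycl (1.36, 0.0493) and Mxd4 (-2.66, 0.00281) were still called, and without d6_Ineff replicate 2 the Mycl call was lost (1.31, adjusted p = 0.0671). The epithelial and fibroblast marker sums also differed between these gates, at 104 to 185 CPM of fibroblast markers in d6_Eff and 1026 to 1124 CPM in d6_Ineff; their part in the differences of the members was not tested.

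On day 3 no member was called by edgeR between d3_Eff and d3_Ineff, where 0.400% of all genes were. At an unadjusted p under 0.05 the count was 3, and DESeq2 called 2, Mycn and Mxd4. The widest gaps among the 9 were those of Mycn, Mycl, Mxd1 and Mxd4. The log2 differences were 1.00 ± 0.27 for Mycn (adjusted p = 0.192), 0.89 ± 0.27 for Mycl (0.267) and -0.74 ± 0.23 for Mxd4 (0.300, all edgeR). Each had both d3_Eff libraries on 1 side of both d3_Ineff libraries, but so did Mxd1 (-0.80) and Mxd3 (0.24). The share of all genes without overlap was not counted. Without MEF replicate 2, a library of neither group, all 3 were called (adjusted p = 0.00444, 0.0154 and 0.00708 in the same order), where 3.68% of all genes were.

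Whether the gap between the gates widened was tested as the Eff against Ineff difference on day 6 minus that on day 3. Mxd4 was the 1 member called, at -1.94 ± 0.33 on the log2 scale (SE, edgeR adjusted p = 0.0202), where 1.39% of all genes were called. When 1 library at a time was left out, the Mxd4 call was lost 7 times of 12 (adjusted p between 0.0533 and 0.102). For Mycn the difference was 1.07 ± 0.38 (adjusted p = 0.252, edgeR), and DESeq2 called it (adjusted p = 0.0246). Mycl stood at 0.65 ± 0.38 (adjusted p = 0.549, edgeR).

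Between day 3 and day 6, Mycn was the 1 member called in the Ineff gates, and Mycn and Mxd4 were called in the Eff gates. In d6_Ineff, Mycn was higher than in d3_Ineff by 1.62 ± 0.28 on the log2 scale (SE, edgeR adjusted p = 0.009), a 3.07-fold level, where 4.42% of all genes were called. This call was lost without any 1 of the 4 libraries compared (adjusted p between 0.0565 and 0.12). In d6_Eff, Mycn was higher than in d3_Eff by 2.69 ± 0.28 (adjusted p = 0.000203, edgeR), a 6.43-fold level, where 9.11% of all genes were called. Mxd4 was lower in d6_Eff than in d3_Eff, at -1.31 ± 0.24 (adjusted p = 0.00531, edgeR), which did not pass without d3_Eff replicate 2 (-1.16, 0.054) or without d6_Eff replicate 2 (-1.26, 0.0575). In the Ineff gates Mxd4 stood at 0.63 ± 0.23 (adjusted p = 0.171, edgeR).

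The step from d6_Eff to iPSC called 4 members, Mycn and Mga higher and Mycl and Mxd4 lower in iPSCs, where 29.6% of all genes were called. Mycn averaged 185 ± 21.7 CPM in iPSCs and 89.0 ± 3.28 CPM in d6_Eff, a log2 difference of 1.06 ± 0.26 (SE, edgeR adjusted p = 0.0109). Mxd4 fell by 4.22 on the log2 scale (log2 change -4.22 ± 0.28, adjusted p = 1.7e-06, edgeR), to 1.80 ± 0.679 CPM in iPSCs, against 34.5 ± 2.3 CPM in d6_Eff. The Mycn call was lost without d6_Eff replicate 1, d6_Eff replicate 2 or iPSC replicate 1 (adjusted p between 0.0666 and 0.0994). Over this step Mycn was higher and Mycl lower, where both had been higher in each Eff gate than in MEFs.

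Levels of different genes were compared per kilobase of exons, as CPM per kb. Mycn made up 1.46% of the summed Mycn and Mycl level in MEFs (2.93% in replicate 1 and 0% in replicate 2). It made up 25.6% in d3_Eff, 24.1% in d3_Ineff, 61.5% in d6_Eff, 52.6% in d6_Ineff and 88.9% in iPSCs. The share was higher on day 6 than on day 3 in both gates, and the gates of 1 day were closer to each other than to the other day. The summed level of Mycn and Mycl was 4.29 ± 1.52 CPM per kb in MEFs, 16.3 ± 2.43 in d3_Eff, 8.64 ± 0.604 in d3_Ineff, 44.0 ± 3.20 in d6_Eff, 12.3 ± 1.47 in d6_Ineff and 63.2 ± 7.47 in iPSCs (SD, n = 2 each). With Myc included, Myc itself held 84.5% of the family's level in MEFs (90.9% in MEF replicate 1 and 78.1% in MEF replicate 2), 66.7% in d6_Eff, 88.6% in d6_Ineff and 6.10% in iPSCs.

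The 5 repressors Mxd1, Mxd3, Mxd4, Mxi1 and Mnt summed to 31.6 ± 8.39 CPM per kb in MEFs, 24.9 ± 0.0916 in d3_Eff, 31.6 ± 0.793 in d3_Ineff, 21.1 ± 0.527 in d6_Eff, 41.9 ± 0.807 in d6_Ineff and 21.9 ± 0.412 in iPSCs (SD, n = 2 each). The repressor sum spanned a narrower range than that of Mycn and Mycl, and d6_Eff and iPSC had close sums of different makeup. Mxd4 held 57.7% of the repressor level in MEFs, 40.4% in d3_Eff, 53.3% in d3_Ineff, 19.3% in d6_Eff, 62.2% in d6_Ineff and 0.964% in iPSCs. Mnt held 17.7% in MEF replicate 1 and 4.59% in MEF replicate 2, 23.0% in d6_Eff, 15.2% in d6_Ineff and 48.7% in iPSCs. The ratio of the Mycn and Mycl sum to the repressor sum was 0.147 ± 0.0872 in MEFs, 0.656 ± 0.10 in d3_Eff, 0.274 ± 0.0260 in d3_Ineff, 2.09 ± 0.204 in d6_Eff, 0.292 ± 0.0295 in d6_Ineff and 2.88 ± 0.287 in iPSCs. The MEF mean of this ratio joins 0.0857 in MEF replicate 1 and 0.209 in MEF replicate 2, whose repressor sums were 37.5 and 25.6 CPM per kb in the same order. With Myc added to Mycn and Mycl the sum was 29.8 CPM per kb in MEFs, 119 in d3_Eff, 103 in d3_Ineff, 132 in d6_Eff, 108 in d6_Ineff and 67.2 in iPSCs, above the repressor sum in all 4 sorted groups and in iPSCs. Max stood at 27.6 ± 4.54 CPM per kb in d3_Ineff, its highest group, and at 21.8 ± 1.58 in MEFs, its lowest. With the longest transcript in place of all exons, Max came to 40.4 CPM per kb in MEFs and the Mnt share of the repressors to 7.11% in MEFs and 9.58% in d6_Ineff, so that levels between genes depend on the length used.

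**Figure D3:**
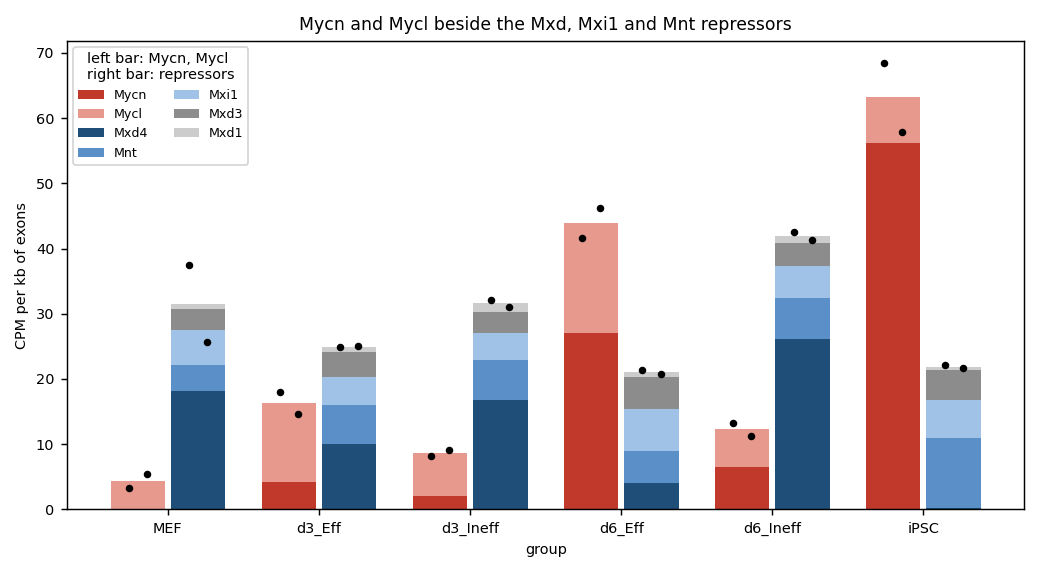
Mean CPM per kb of exons (vertical axis, from 0) in the 6 groups, stacked by gene: the left bar of each pair is Mycn and Mycl, the right bar the 5 repressors Mxd1, Mxd3, Mxd4, Mxi1 and Mnt, with Myc in neither; points are the summed levels of single libraries. The left bar exceeds the right one only in d6_Eff (44.0 against 21.1) and iPSC (63.2 against 21.9), and Mxd4 holds 62.2% of the right bar in d6_Ineff and 0.964% in iPSC.

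Over the 12 libraries, the genes most like each member were found by the Pearson correlation of log2 CPM among 10222 protein-coding genes; the libraries share 6 groups, so a high value mostly says that 2 genes order the groups alike. Among the genes closest to Mycn was Ptpn6, which encodes the phosphatase SHP-1 (r = 0.988). Mycl was closest to Ivns1abp (0.968), Itpa (0.909) and the cell cycle kinase gene Cdk4 (0.909). Mxd4 was closest to Prnp, the prion protein gene (0.995), which had 7.96 CPM in iPSCs and 345 CPM in d6_Ineff. Mnt was closest to Vps33b (0.984), Mga to the helicase gene Helb (0.972), Mxd1 to Gcc2 (0.948), Mxi1 to Ldlrad3 (0.930), Mxd3 to the phosphatase gene Ppp1cc (0.926) and Max to Ccar1 (0.867).

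The genes that work with the network were taken as 7 lists of 73 distinct genes, all of which were tested; Hdac1, Hdac2 and Wdr5 stand in more than 1 list. Between iPSCs and MEFs, 46 of the 73 were higher and 3 lower by edgeR's test, where 26.0% of all genes were higher and 26.7% lower. The 46 include germline genes without counts in MEFs, which could only be higher in iPSCs, and others close to 0 there, which could hardly be lower. Between d6_Eff and d6_Ineff, 17 were higher and 2 lower, where 5.38% of all genes were higher and 9.25% lower. Between d3_Eff and d3_Ineff edgeR called 0 of the 73, with 7 at an unadjusted p under 0.05, and DESeq2 called 3.

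Of 20 known Myc targets, genes of ribosome assembly, nucleotide supply and growth, 15 were higher and 1 lower in iPSCs than in MEFs, with a median log2 change of 1.31 beside 0.04 over all genes. Fbl, which encodes the nucleolar methyltransferase fibrillarin, averaged 191 ± 20.9 CPM in iPSCs and 52.2 ± 1.37 CPM in MEFs (adjusted p = 3.79e-05, edgeR). The chaperonin gene Hspd1 averaged 952 ± 17.9 CPM in iPSCs and 357 ± 1.32 CPM in MEFs (adjusted p = 3.9e-05, edgeR). The lower one was the cyclin gene Ccnd2, at 27.1 ± 0.105 CPM in iPSCs and 855 ± 105 CPM in MEFs (SD, n = 2 each). In d6_Eff, 9 targets were higher and Ccnd2 was lower than in d6_Ineff, with a median of 0.81 on the log2 scale beside 0.00 over all genes. Fewer targets were called without d6_Eff replicate 2 and more without MEF replicate 2, and the share of all genes called moved the same way.

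Of the 12 partners of Mga in its Polycomb complex, 7 were higher and 2 lower in iPSCs than in MEFs. Among all genes in this comparison 26.0% were higher and 26.7% lower. The called genes with the smallest p were Wdr5, at 318 ± 4.23 CPM in iPSCs and 67.7 ± 1.62 CPM in MEFs, and Pcgf6, at 85.2 ± 2.63 CPM in iPSCs and 15.2 ± 1.55 CPM in MEFs (SD, n = 2 each). Pcgf6 is the subunit that sets this Polycomb complex apart from the others. The lower ones were Yaf2 (log2 change -2.37 ± 0.28) and Ring1 (-0.68 ± 0.26). Between d6_Eff and d6_Ineff, 3 were higher, Wdr5, Pcgf6 and Tfdp1, and none lower. Fewer were called without d6_Eff replicate 2 and more, in both directions, without MEF replicate 2. The share of all genes called moved the same way.

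Of 13 germline genes that Mga and Max are known to hold down in mouse embryonic stem cells, 10 were higher and none lower in iPSCs than in MEFs. Levels stayed low: Stra8, a gene of meiotic entry, averaged 29.4 ± 2.23 CPM in iPSCs and 0.0258 ± 0.0365 CPM in MEFs, and Zcwpw1, a meiotic histone reader, averaged 14.7 ± 2.02 CPM in iPSCs and 0.258 ± 0.365 CPM in MEFs (SD, n = 2 each). Hormad1, Mael and Taf7l, named after their values were seen, averaged 14.9, 13.8 and 1.73 CPM in iPSCs and had no counts in MEFs. Hormad1 and Mael had none in the day 6 groups either. Genes without counts in MEFs could not be lower in iPSCs, and may have passed the low-count filter through the iPSC libraries alone. The direction of these genes was therefore not open. Much the same holds for Stra8, Sycp3 and Stk31, which averaged 0.0258, 0.155 and 0.258 CPM in MEFs. In the day 6 groups they averaged at most 0.257 CPM, and lower levels in iPSCs could hardly have been called. In d6_Eff, Tdrkh alone was called, lower than in d6_Ineff, at 18.8 ± 1.18 CPM in d6_Eff and 33.2 ± 3.01 CPM in d6_Ineff (adjusted p = 0.0467, edgeR). This call was lost without d6_Eff replicate 2, where fewer of all genes were called too. Without MEF replicate 2, more of the list were called lower and more of all genes were called. The same iPSC libraries had the highest Mga and Mnt levels of the 12.

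Of 10 Sin3 and NCoR corepressor genes, 5 were higher and none lower in iPSCs than in MEFs. They were Sap30 (log2 change 2.73 ± 0.19), Sin3a (2.12 ± 0.35), Rbbp4 (0.94 ± 0.20), Hdac1 (0.87 ± 0.16) and Rbbp7 (0.53 ± 0.17). Among all genes in this comparison 52.7% were called, 26.0% higher and 26.7% lower. Of 9 coactivators, 5 were higher: the helicase subunits Ruvbl2 (2.33 ± 0.17) and Ruvbl1 (1.91 ± 0.21), Wdr5 (2.23 ± 0.17), Actl6a (2.04 ± 0.18) and the acetyltransferase Kat2a (1.66 ± 0.30). Without MEF replicate 2, 1 coactivator was also lower. Of 9 genes of Myc protein turnover and partnership, 6 were higher. Of these, the deubiquitinases Usp28 (3.91 ± 0.22) and Usp7 (2.05 ± 0.23) and the kinase Aurka (1.98 ± 0.17) are known to stabilise Myc or Mycn proteins, while Fbxw7 (1.36 ± 0.36), Skp2 (1.18 ± 0.21) and Fbxl14 (0.57 ± 0.20) encode ubiquitin ligase subunits that mark Myc for breakdown. Of the 3 genes of the Mlx arm, a parallel network of Max-like factors, none was called by edgeR or DESeq2, and 1 had an unadjusted p under 0.05.

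Between d6_Eff and d6_Ineff the same 4 lists gave Sap30 alone of the corepressors (0.59 ± 0.18), Ruvbl2 (1.14 ± 0.16), Wdr5 (1.11 ± 0.16) and Actl6a (0.62 ± 0.17) of the coactivators, Aurka (0.93 ± 0.16) and Skp2 (0.85 ± 0.20) of the turnover genes, and 0 of the Mlx arm (0 also by DESeq2 and at an unadjusted p under 0.05), all higher in d6_Eff. Among all genes in this comparison 5.38% were higher and 9.25% lower. Fewer corepressors, coactivators and turnover genes were called without d6_Eff replicate 2 and more without MEF replicate 2, all higher. The share of all genes called moved the same way.

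**Figure D4:**
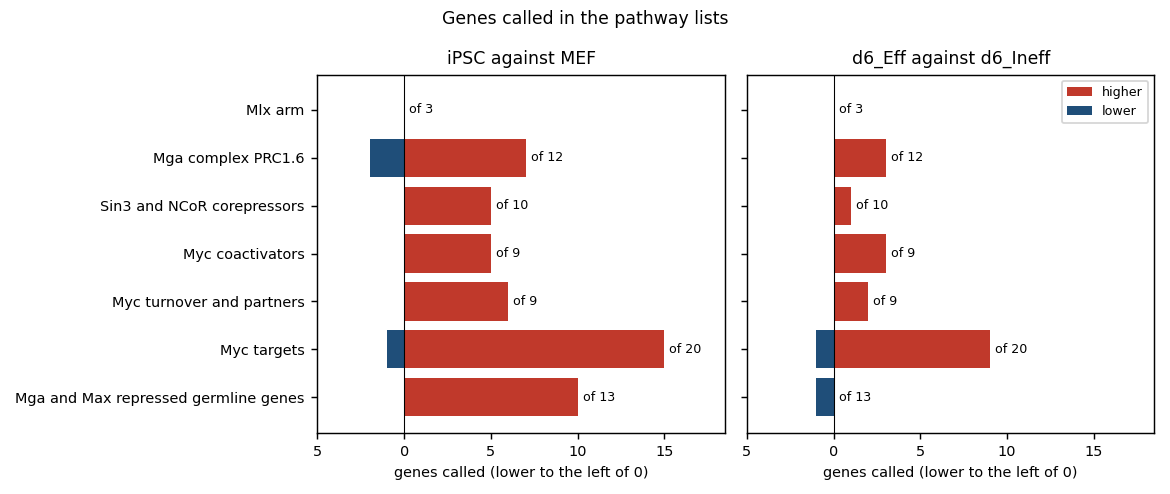
Number of genes called by edgeR in each of the 7 lists (horizontal axis, higher to the right of 0 and lower to the left), for iPSC against MEF and for d6_Eff against d6_Ineff, with the size of each list beside its bar. In iPSC against MEF the higher counts run up to 15 of the 20 Myc targets, and in d6_Eff against d6_Ineff up to 9 of 20.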

How the data were processed

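Poly-A RNA of 12 libraries was read with a directional kit, and per the submitters' processing notes the tools were STAR 2.3.0, Picard 1.100 and HTSeq 0.6.0 on mm9; the gene annotation they used is not stated there. The authors deposited whole-number counts per Ensembl gene, counted without regard to strand per the file names, with summary lines for reads outside genes that were left out of library sizes. Symbols, exon lengths and overlaps came from GENCODE M21 (32860 of 37583 IDs, 87.4%).

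Counts were filtered (filterByExpr), TMM-scaled and tested with edgeR 4.0.16 in R 4.3.3 (quasi-likelihood F-test, 1 mean per group, all 12 libraries). Calls were made at 0.05 after Benjamini-Hochberg adjustment over 16240 genes. The procedure was tested on simulated data for iPSC against MEF only. All simulated libraries had the same spread, so the simulation cannot show how the procedure performs on these libraries. Alternatives were DESeq2 1.42.0, RLE scaling, no filter, the replicate number as a block, the longest transcript, and each library left out. The 2 replicates per group limit the precision.

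The 9 members and the lists were chosen with earlier results of these data known. All members are named; of a list, the called genes with the 2 smallest adjusted p in each direction, and all of a count of 5 or fewer. Genes of like pattern needed a mean of at least 5 CPM and used a prior count of 2. The 3 nearest were taken for Mycn and for Mycl and the nearest for each other member; some of those for Mycn are not reported here.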

Additional observations from a re-analysis of the deposited data

Results flagged for a closer look

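The Eff against Ineff difference of Mxd4 was not the same on both days: the day 6 difference minus the day 3 difference was -1.94 ± 0.33 on the log2 scale (edgeR adjusted p = 0.0202), from -2.68 on day 6 and -0.74 on day 3. The direction held in all 17 alternative settings that were run, and the call was lost in 7 refits without 1 library.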

How the results depend on the processing

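Of 1683 alternative values of a member in a comparison, 1585 stayed on their side of the threshold with no called value turning. Of the rest, 46 lost a call and 48 gained one. The remaining 4 were not called with all 12 libraries, and were called with the turned sign in a refit. Of the 1585, 72 changed sign without a call in either setting. The turned values were those of Mxd1 without MEF replicate 1, at 1.64 in iPSC against MEF, 2.25 in d3_Eff against MEF and 2.22 in d6_Eff against MEF, and that of Mnt without MEF replicate 2, at -0.56 in d6_Eff against MEF; in each, 1 MEF library was alone. With the other MEF library alone they were -1.66, -1.10 and -1.13 for Mxd1 and 2.05 for Mnt, in the same order. The causes of the other changes were not tested. RLE scaling moved no count of members by more than 1.5 times.

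DESeq2 called 2 members in d3_Eff against d3_Ineff, 2 in d6_Ineff against d3_Ineff and 2 in the difference between days. Without a filter, 1 was called in d3_Eff against d3_Ineff and 2 in d6_Ineff against MEF. Calls of Mga in d6_Eff against MEF and of Mnt in iPSC against d6_Eff were also gained without it. Leaving out MEF replicate 2 and d6_Eff replicate 2 together, chosen after seeing the data, gave more called members in 6 comparisons. These were d3_Ineff against MEF, d6_Ineff against MEF, d3_Eff against d3_Ineff, d6_Ineff against d3_Ineff, the difference between days and the test across the 6 groups. In each of these 6 the share of all genes called was also larger. Smaller gains came in iPSC against MEF, d6_Eff against MEF, d6_Eff against d3_Eff and iPSC against d6_Eff. The share of all genes called was not larger in iPSC against MEF or in d6_Eff against MEF, and was larger in the others. Over all genes, d3_Eff against d3_Ineff called 65, and 459 with no filter, 418 by DESeq2 and 706 without both libraries. For d6_Ineff against d3_Ineff these counts were 717, and 1362, 1593 and 2693. For the difference between days they were 225, and 832, 806 and 949. In d6_Eff against d3_Eff, DESeq2 called 2250 genes and edgeR 1479.

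Leaving out 1 library at a time, with a lone replicate assumed to vary like the other groups, the members called ran from 3 to 6 in iPSC against MEF, 1 to 4 in d3_Ineff against MEF, 2 to 6 in d3_Eff against MEF, 1 to 5 in d6_Ineff against MEF, 3 to 6 in d6_Eff against MEF, 0 to 3 in d3_Eff against d3_Ineff, 2 to 3 in d6_Eff against d6_Ineff, 0 to 2 in d6_Ineff against d3_Ineff, 1 to 2 in d6_Eff against d3_Eff, 2 to 5 in iPSC against d6_Eff, 0 to 2 in the difference between days and 4 to 7 across the 6 groups. All genes called ran from 2946 to 6798 in d3_Ineff against MEF, 3112 to 7237 in d6_Ineff against MEF, 4 to 644 in d3_Eff against d3_Ineff, 930 to 4715 in d6_Eff against d6_Ineff, 103 to 2607 in d6_Ineff against d3_Ineff, 657 to 2958 in d6_Eff against d3_Eff, 2834 to 6815 in iPSC against d6_Eff and 20 to 1349 in the difference between days.

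The labels do not say what a replicate number shares. Same-numbered libraries of 2 of 15 group pairs deviated together at r over 0.1 (range -0.10 to 0.21). These values cannot tell whether same-numbered libraries shared a culture or a run. With the replicate number as a block, Mga was called in d6_Eff against MEF (0.95, adjusted p = 0.0382, edgeR), and no other member's call changed. With the longest transcript, the Mycn share of Mycn and Mycl came to 26.9% in d3_Eff and 89.6% in iPSCs.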
